A study of Homo sapiens with 3 samples.

Results

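The 7 genes described here, NPM1, NCL, FBL, ODC1, LDHA, NME1 and CDK4, are classic targets of the transcription factor MYC. They were chosen by name and position, and no measured value entered the rule. The choice was made with earlier results of these data known. All intervals of both peak lists that overlapped a gene body extended by 5 kb on each side were taken, which gave 16 of 215598 CREBBP peaks and 11 of 18263 H3K27ac regions. The lists come from SC1, an established human lymphoma line labelled as DLBCL, short for diffuse large B-cell lymphoma. ChIP-seq, in which DNA bound by an antibody's target is sequenced, was run on 1 sample for CREBBP, on 1 sample for H3K27ac (acetylation of lysine 27 on histone H3) and on 1 input sample with no antibody. The study's title is about CREBBP-deficient DLBCL and MYC, but the labels give no CREBBP-deficient sample, no treatment and no genotype for SC1. DMSO and rep2 stand in the peak names without an explanation in the labels. Each group held 1 sample, so no value below has a replicate error and no difference was tested. The input was not analysed here. The B-cell markers of the line were not checked, since no gene annotation of the build of the files, hg19, was at hand.

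MYC pairs with MAX and binds the E-box, the letters CACGTG, in promoters of genes that drive cell growth. NPM1 (a nucleolar histone chaperone), NCL (nucleolin, a nucleolar RNA-binding protein) and FBL (fibrillarin, the rRNA methyltransferase of box C/D particles) serve ribosome assembly. ODC1 is the rate-limiting enzyme of polyamine synthesis, LDHA turns pyruvate into lactate, NME1 is a nucleoside diphosphate kinase, and CDK4 is the cyclin D partner that starts the cell cycle. CREBBP is a lysine acetyltransferase recruited by many activators, and H3K27ac marks active promoters and enhancers.

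All 7 start sites lay inside an H3K27ac region, while 5 of the 7 start site regions held a CREBBP peak and those of NPM1 and FBL held none. Here the start site is the 5′ end of the gene interval. The share of all gene start sites inside an H3K27ac region was not counted, since no hg19 annotation was at hand. The 7 of 7 is therefore not shown to be particular to these genes. The 7 windows spanned 152 kb, of which H3K27ac regions covered 19.9 kb, or 13.1%, against 1.12% of the extent of all chromosomes used. Of the 11 H3K27ac regions, 7 lay at a start site and 4 elsewhere in the windows of FBL, CDK4 and NME1. Of the 16 CREBBP peaks, 8 lay inside an H3K27ac region, 50% (exact Clopper-Pearson 95% interval 24.7 to 75.3%), against 5.06% of the whole list. The whole list is not matched for coverage, since the mark covered 13.1% of the windows but 1.12% of the chromosomes used. The 50% is therefore not shown to be particular to these genes. Of the 11 regions, 7 held a CREBBP peak, 63.6% (30.8 to 89.1%), against 49.0% of all regions. Of the 7 start site regions alone, 5 did, 71.4% (29.0 to 96.3%), against 62.0% of the 9942 regions at least as wide as the narrowest of them, so both shares were near those of the list. These intervals cover counting error only. Among the 16 CREBBP peaks, 3 passed a q of 0.05, 18.8% (4.05 to 45.6%), against 1.81% of the list. These were 1 peak each at ODC1, CDK4 and NCL. Those at ODC1 and CDK4 lay at the start site, so 2 of 11 regions held a peak of that strength, against 11.4% of all regions. Inside the mark, 2 of the 8 peaks of these genes passed this q, against 2204 of the 10903 peaks of the list inside an H3K27ac region. These shares were close. The 18.8% against 1.81% is not a like comparison, since 50% of these peaks but 5.06% of the list lay inside the mark.

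**Figure D1:**
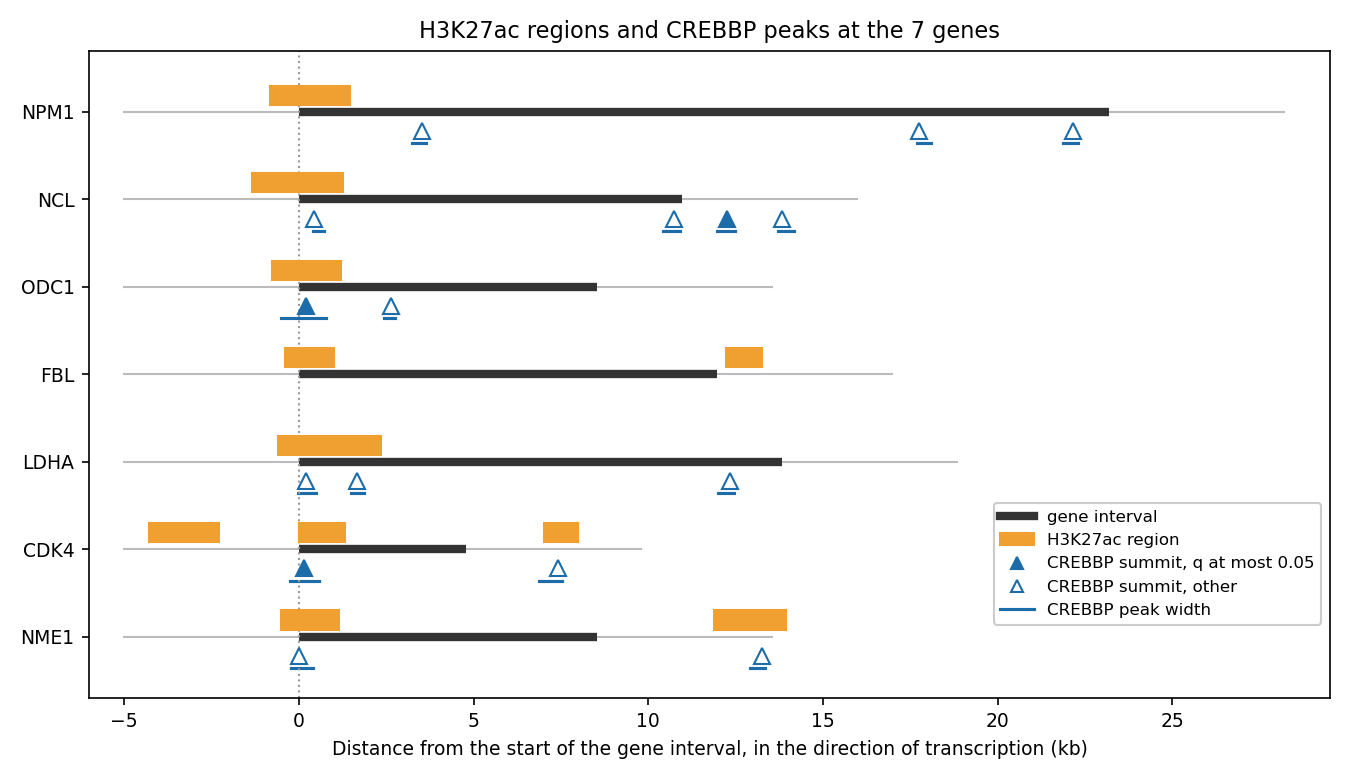
H3K27ac regions (orange) and CREBBP peaks (triangles at the summits, lines for the widths) at the 7 genes, by distance in kb from the start site in the direction of transcription; thin lines mark the 5 kb extensions. An H3K27ac region covers all 7 start sites, the 3 filled triangles are the peaks of q at most 0.05, and FBL has no CREBBP peak.

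The start site regions were of ordinary strength for the list but mostly wide. Their widths were 1332 bp at CDK4, 1413 bp at FBL, 1660 bp at NME1, 1952 bp at ODC1, 2283 bp at NPM1, 2617 bp at NCL and 2932 bp at LDHA, a median of 1952 bp against 1423 bp over all regions. The LDHA region was wider than 85.9% of the list, and the CDK4 region was wider than 45.6%. None of the 7 was near the broadest domains. When regions within 12.5 kb were joined, the 7 start sites fell in domains with 1.95 to 4.80 kb of covered length, against the 8.03 kb that the top 5% of 13232 domains reached. The H3K27ac fold enrichment, the authors' ratio of ChIP signal to expected background taken as a mean over the region, was 11.8 at FBL, 9.19 at NME1, 4.79 at CDK4, 4.16 at NPM1, 3.52 at LDHA, 3.20 at ODC1 and 2.38 at NCL. Its median was 4.16, against 4.92 over all regions. The order of fold was thus led by FBL, above 89.4% of the list, and closed by NCL, above 12.4%. Without replicates, it is not known which neighbours in this order differ. All 11 regions passed a q of 0.05, as did 99.3% of the list. The 3 widest start site regions, at LDHA, NCL and NPM1, were all in the lower 50% by q.

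**Figure D2:**
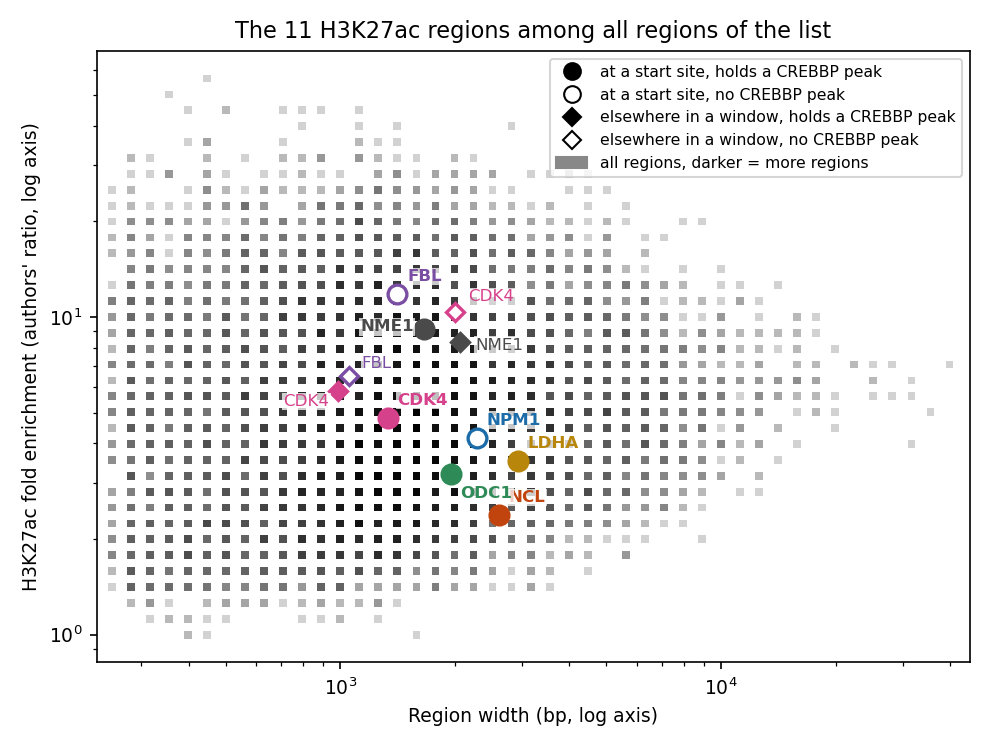
Width (bp) and H3K27ac fold enrichment of the 11 regions in the gene windows (coloured symbols) over all 18263 regions (grey squares), both on log axes; filled symbols hold a CREBBP peak. FBL and NME1 have the highest fold of the start site regions (11.8 and 9.19), and NCL has the lowest (2.38).

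Measured from the 5′ ends of the gene intervals, the mark reached farther into the genes than upstream of them. The start site regions extended 1004 to 2337 bp past the start site, with a median of 1276 bp, and 5 to 1340 bp upstream of it, with a median of 594 bp. At NCL the upstream side was the longer one (1340 bp against 1276 bp), and at the other 6 genes the downstream side was. LDHA had the longest downstream arm, 2337 bp, and 16.9% of its gene interval was covered. The largest share covered was 27.7%, at CDK4. The region of CDK4 ended 5 bp upstream of the start site. The gene intervals differ in length from those of RefSeq on another assembly. The difference is 604 bp at NPM1, 211 bp at CDK4, 177 bp at ODC1 and 10 to 84 bp at the others, and does not say which end differs. RefSeq also lists a second start downstream of the first, by 733 bp at NPM1, 315 bp at ODC1 and 1788 bp at LDHA. The start sites used are therefore uncertain, and so are all distances measured from them.

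In the 5 start site regions with CREBBP peaks, the strongest summit lay within 442 bp of the interval's start. The order of these peaks by strength was not that of the mark. By the gene intervals, the 5 summits were 8 bp downstream of the start site at NME1, 139 bp at CDK4, 191 bp at LDHA, 205 bp at ODC1 and 442 bp at NCL. The interval lengths differ from RefSeq by 211 bp at CDK4, 177 bp at ODC1 and 84 bp at NME1, and LDHA has a second RefSeq start. At these genes the side of the true start on which the summit lies is therefore not settled. The deposited fold and p of a peak together give the number of fragments at the summit and the background, if fold is fragments plus 1 over background plus 1. Solved in this way, ODC1 had 36 fragments (exact Poisson 95% interval 25.2 to 49.8) over a background of 9.85, NME1 had 29 (19.4 to 41.6) over 14.8, LDHA had 27 (17.8 to 39.3) over 12.9, CDK4 had 26 (17.0 to 38.1) over 9.24, and NCL had 15 (8.40 to 24.7) over 9.24. The intervals of ODC1, NME1, LDHA and CDK4 overlap, so counting error alone does not separate these 4. Only at NCL did the interval include the background, and only ODC1 among the 5 had an interval above that of NCL. Peaks were listed for exceeding their background, so an interval clear of the background is no further evidence of enrichment. The peaks of LDHA and NME1 had a −log10 q of only 0.463 and 0.287. CREBBP fold was 3.41 at ODC1, 2.64 at CDK4, 2.01 at LDHA, 1.90 at NME1 and 1.56 at NCL. FBL, first in H3K27ac fold, had no CREBBP peak, and ODC1, sixth in H3K27ac fold, had the strongest one. A gene without a listed peak is one where no peak reached the list's lowest −log10 p of 1.30, which does not show that CREBBP was absent.

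**Figure D3:**
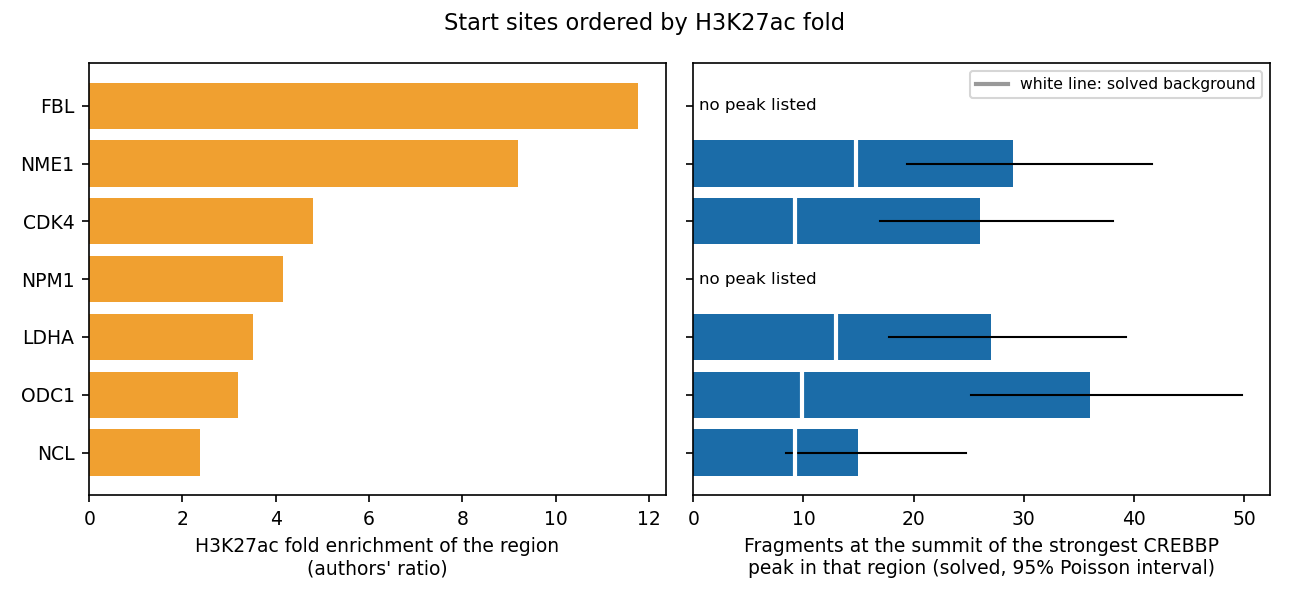
The 7 start sites ordered by H3K27ac fold enrichment (left, orange) beside the solved number of fragments at the summit of the strongest CREBBP peak in the same region (right, blue, with exact Poisson 95% intervals as black lines and the solved background as white lines). FBL and NPM1 have no listed peak, and ODC1, at a fold of 3.20, has 36 fragments.

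The 3 nucleolar genes differed from one another. At NPM1 the H3K27ac region, which ran on chromosome 5 from 170813890 to 170816172, showed a fold of 4.16 and a −log10 q of 31.2. It stood alone, with 616 kb to the nearest other H3K27ac region, a gap wider than that of 99.1% of the list, where the median gap was 16.1 kb. The 3 CREBBP peaks of NPM1 all lay within the gene and outside the mark, with summits 3529, 17753 and 22144 bp from the start site, 8, 5 and 6 fragments over backgrounds of 3.12, 1.72 and 2.77, and a −log10 q of 0 each. Their folds of 2.19, 2.21 and 1.86 were above those of 57.5%, 57.7% and 20.4% of the list.

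At NCL the H3K27ac region on chromosome 2 from 232327929 to 232330545 had the lowest −log10 q of the 11, 4.88. Its CREBBP peak, from 232328497 to 232328812, had a fold of 1.56, higher than only 0.396% of the list, and a −log10 q of 0. By fold and p, the stronger CREBBP peaks of NCL were at the other end of the gene. Their summits lay 226 bp before the gene's end, 1294 bp past it and 2858 bp past it. They had 13, 15 and 9 fragments over backgrounds of 3.70, 3.90 and 2.77, against 15 over 9.24 in the start site region. The middle one, from 232316728 to 232317229, had a fold of 3.27 and a −log10 q of 1.63, and lay 10.7 kb from the mark. It was the only peak of q at most 0.05 in the windows that lay outside the mark; over the whole list 56.5% of such peaks lay inside. The promoter of NCL is shown as an example with no E-box. It is given for the 250 bases upstream of the RefSeq start, on GRCh38.p14 at chr2:231464485-231464734, minus strand, and is not placed on hg19.
NCL: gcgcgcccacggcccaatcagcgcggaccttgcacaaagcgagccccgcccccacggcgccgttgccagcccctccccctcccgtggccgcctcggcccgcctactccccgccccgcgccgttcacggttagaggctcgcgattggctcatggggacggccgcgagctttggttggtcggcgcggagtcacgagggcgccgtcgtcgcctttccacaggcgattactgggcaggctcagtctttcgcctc

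At FBL the start site region on chromosome 19 from 40336050 to 40337462 had a −log10 q of 90.2. A second region, from 40323790 to 40324844, began 250 bp past the end of the gene, with a fold of 6.53 and a −log10 q of 31.1. In RefSeq the next protein-coding gene on that side is DYRK1B, which is read in the same direction. Neither region held a CREBBP peak, and the CREBBP summit nearest to the FBL start site was 27.7 kb away. FBL carries an E-box just past its RefSeq start, printed here in capitals within 28 bases (GRCh38.p14, chr19:39846357-39846384, minus strand) because the gene has the highest H3K27ac fold of the 11 regions and the motif but no listed CREBBP peak.
FBL: gcgctcttttcCACGTGcgaaagccccg

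The metabolic genes ODC1, LDHA and NME1 all had a CREBBP peak across the start site. At ODC1 that peak, on chromosome 2 from 10587866 to 10589137, was 1272 bp wide, wider than 99.5% of the list, and its −log10 q was 6.11. It ranked 539th by p among 215598 peaks. The H3K27ac region around it, from 10587436 to 10589387, had a −log10 q of only 6.45, above that of 12.8% of the list. A second CREBBP peak of ODC1 lay 1250 bp beyond the mark, with 9 fragments over a background of 4.01. The upstream sequence of the first RefSeq start (GRCh38.p14, chr2:10448328-10448577, minus strand) is shown since ODC1 has the strongest CREBBP peak of the 7 genes. It was not placed on hg19, so whether it lies under that peak is not known. Capitals mark the overlapping letters CACGCG and CGCGTG, a variant of the E-box. The 2 E-boxes of the second RefSeq start, 315 bp downstream, follow (chr2:10448025-10448052 and chr2:10447991-10448018, minus strand).
ODC1 upstream: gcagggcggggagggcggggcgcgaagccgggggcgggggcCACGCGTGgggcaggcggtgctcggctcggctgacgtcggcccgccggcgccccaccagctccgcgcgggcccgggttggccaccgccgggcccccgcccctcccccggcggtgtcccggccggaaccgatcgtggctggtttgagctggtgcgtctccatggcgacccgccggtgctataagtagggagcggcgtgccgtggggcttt
ODC1 first E-box: cgggccccgggCACGTGtgcggcgcgcc
ODC1 second E-box: gcctgcggagaCACGTGgtcgccgagcg

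At LDHA the H3K27ac region on chromosome 11 from 18415342 to 18418273 held 2 CREBBP peaks, the most of any of the 11 regions. The first, from 18415906 to 18416419, covered the start site with 27 fragments, and the second, from 18417420 to 18417812, had its summit 1663 bp into the gene with 18 fragments over a background of 9.16. Neither passed a q of 0.05, with a −log10 q of 0.463 and 0. On GRCh38.p14, RefSeq lists a second LDHA start 1788 bp downstream of the first. It was not placed on hg19, so whether the second peak lies at that start was not tested. The other peak of LDHA lay outside the mark, 1501 bp before the gene's end, with 5 fragments over 1.65. The first RefSeq promoter of LDHA (GRCh38.p14, chr11:18394313-18394562, plus strand) is shown because it holds 2 E-boxes, in capitals, and the letters TGACGTCA, the CRE to which CREB binds; CREBBP is named for its binding to CREB.
LDHA: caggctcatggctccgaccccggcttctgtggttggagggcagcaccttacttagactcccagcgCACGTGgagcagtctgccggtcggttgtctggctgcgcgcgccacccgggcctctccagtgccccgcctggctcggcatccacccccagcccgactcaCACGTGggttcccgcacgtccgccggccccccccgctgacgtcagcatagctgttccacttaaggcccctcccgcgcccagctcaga

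At NME1 the H3K27ac region on chromosome 17 from 49230392 to 49232051 had a −log10 q of 104, higher than that of 81.3% of the list. The CREBBP peak over the start site, from 49230659 to 49231293, was 635 bp wide with a −log10 q of 0.287. A second H3K27ac region, from 49242765 to 49244823, lay 3343 bp past the gene's end with a fold of 8.31 and a −log10 q of 100.3, on the side where RefSeq places NME2, a paralog that shares a readthrough transcript with NME1. It held a CREBBP peak of 26 fragments over a background of 14.2. The values at the start and past the end of the gene were close, with an H3K27ac fold of 9.19 and 8.31 and a CREBBP fold of 1.90 and 1.78. The E-box of NME1 lies 35 bases past its RefSeq start (GRCh38.p14, chr17:51153581-51153608, plus strand).
NME1: agtgctgcgaacCACGTGggtcccgggc

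CDK4 had the most H3K27ac in its window, 3 regions that covered 29.2% of it. The start site region, on chromosome 12 from 58144978 to 58146309, had a fold of 4.79. The region upstream, from 58148601 to 58150602, was stronger, with a fold of 10.4 and a −log10 q of 170, higher than that of 91.7% of the list, and held no CREBBP peak; RefSeq places MARCHF9 on that side. The region past the gene's end, from 58138307 to 58139292, had a fold of 5.83 and held a CREBBP peak of 19 fragments over 10.2, on the side where TSPAN31 overlaps CDK4 in RefSeq. The CREBBP peak at the start site, from 58145723 to 58146549, was 827 bp wide with a −log10 q of 1.92. It reached 245 bp upstream of the start site, past the upstream edge of the mark. The promoter of CDK4 (GRCh38.p14, chr12:57752311-57752560, minus strand) is shown because it has 3 E-boxes, in capitals, a number that 0.0940% of all RefSeq promoters reach.
CDK4: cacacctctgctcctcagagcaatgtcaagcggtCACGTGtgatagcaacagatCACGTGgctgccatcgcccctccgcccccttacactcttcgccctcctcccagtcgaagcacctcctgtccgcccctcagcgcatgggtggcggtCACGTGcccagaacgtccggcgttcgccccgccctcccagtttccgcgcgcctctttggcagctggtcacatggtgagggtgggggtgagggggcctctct

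An E-box stood in some but not all of the promoters; binding by MYC is what these genes are known for. Of the 7 genes, 5 had CACGTG within 250 bases before to 50 bases after a RefSeq start (FBL, ODC1, LDHA, NME1 and CDK4), against 8.77% of 27305 genes. By promoter, the count was 5 of 10, against 7.26% of 35116. The letters CACGCG, on either strand, were found at NPM1, ODC1, FBL and LDHA, 4 of 7 genes, against 13.5%. The GC box GGGCGG was found at 5 of 7 genes, against 48.3%, CCAAT at 4 of 7, against 39.7%, TATAAA at 0 of 7, against 14%, and TGACGTCA at LDHA alone, against 2.25%. All 6 motifs were sought on both strands, and overlapping matches were counted. The promoters of these genes were rich in G and C, 47.7 to 80.7% with a median of 66.8%, against a median of 58.7% over all promoters, and the part of base composition in these counts was not tested. Of the genes without an E-box in this window, NPM1 had no listed CREBBP peak in its start site region. NCL had a peak there, which did not cover the start site and whose fragment interval included the background. FBL, which has an E-box, also had no listed CREBBP peak in its start site region. Whether E-boxes and CREBBP peaks go together was not tested. A match describes these letters only and is not a site of binding.

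**Figure D4:**
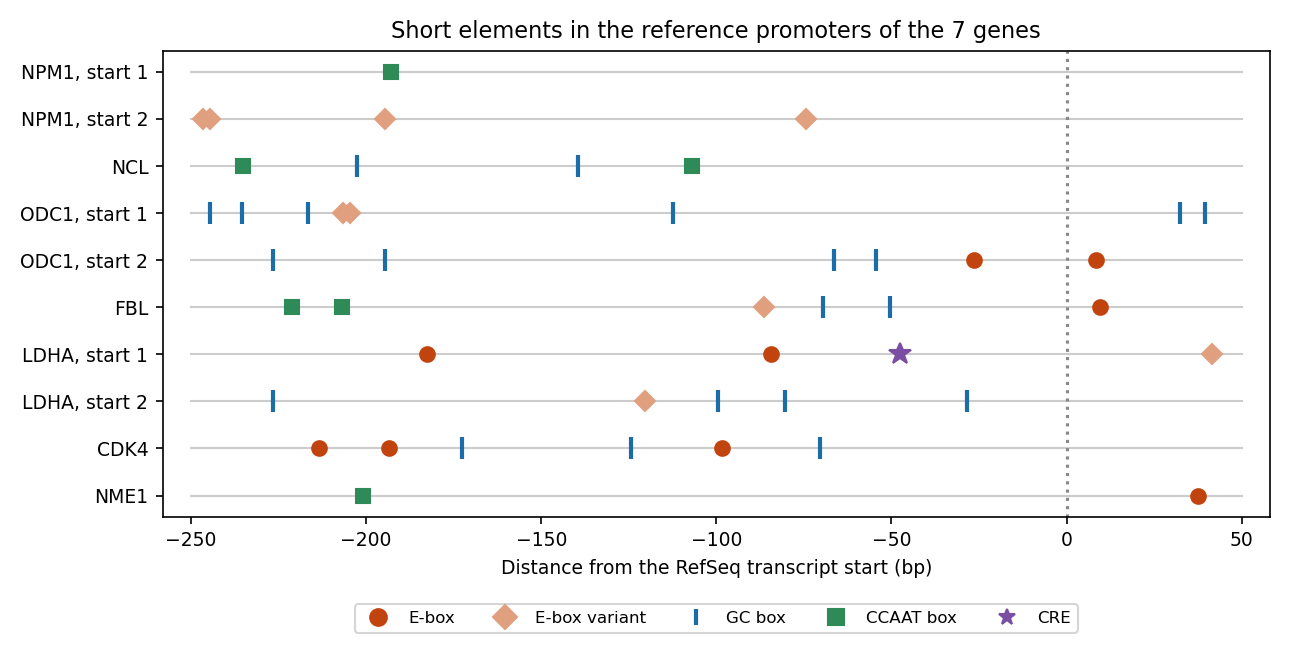
Positions of short elements in the 10 RefSeq promoters of the 7 genes, by distance in bp from the transcript start. E-boxes (red circles) appear at FBL, LDHA, CDK4, NME1 and the second start of ODC1, with 3 at CDK4; NCL and both starts of NPM1 have none.

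CREBBP peaks outside the mark had fewer fragments at the summit than those inside. By the gene intervals used, no CREBBP summit fell in the 35.0 kb of windows upstream of the 7 start sites. Such a stretch would hold 2.49 at the average density of the list, and whether the absence differs from that density was not tested. The absence also rests on uncertain start sites. The summits 8 bp downstream at NME1 and 139 bp at CDK4 lie within the length differences from RefSeq, 84 and 211 bp. Of the 16 summits, 12 lay within a gene and 4 past its end, and of the 8 outside the mark, 6 lay within a gene and 2 past its end. The 3 nearest upstream summits within 10 kb were 6.15 kb from LDHA, 6.90 kb from NME1 and 7.53 kb from ODC1. The 8 peaks inside the mark had a median of 26 fragments (range 15 to 36) over a median background of 10.0, and the 8 outside had a median of 8.5 (5 to 15) over 2.94. Over the whole list these medians were 16 fragments over 6.87 inside and 5 over 1.30 outside, so the peaks of these genes stood on a higher background than the list in both places. Fold, which divides by that background, was 1.89 inside and 2.24 outside in the median. Among the 4472 peaks of the list with a background of 8 to 16 fragments, bounds set after the values were seen, the median fold was 1.94 (interquartile range 1.68 to 2.31), and 92.0% lay inside an H3K27ac region. The 8 peaks of these genes inside the mark, at 1.56 to 3.41, had folds around that median. The start site peaks of ODC1 and CDK4 were above that interquartile range, and the peak in the NCL start site region was below it. What sets the background at these genes was not tested.

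**Figure D5:**
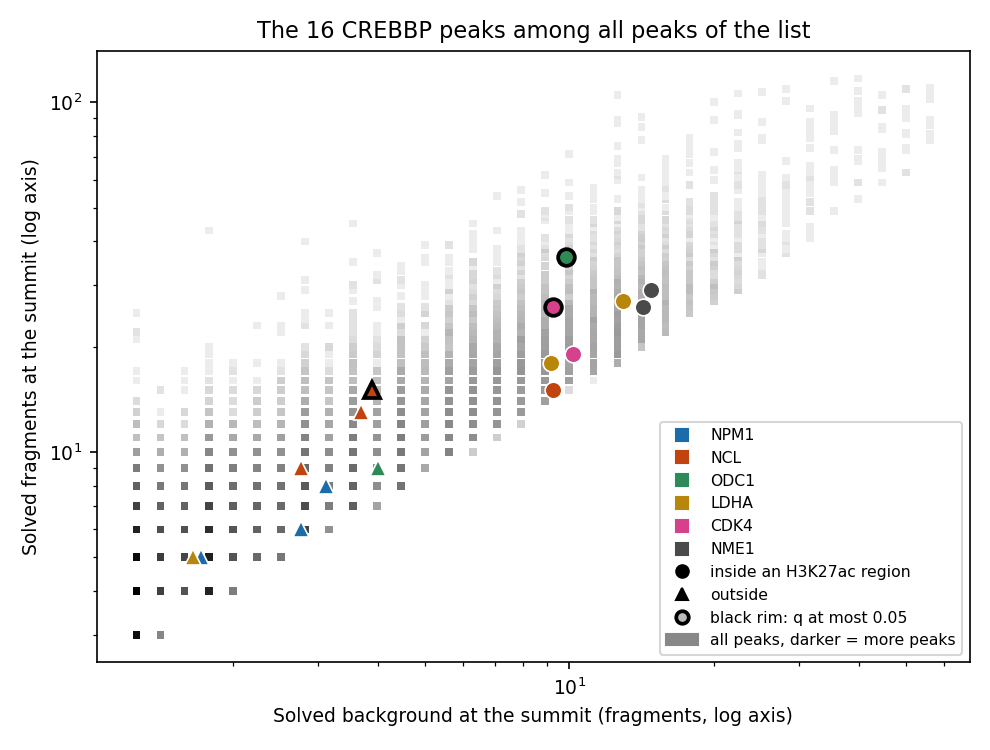
Solved fragments at the summit against solved background, both on log axes, for the 16 CREBBP peaks of the gene windows (coloured; circles inside an H3K27ac region, triangles outside, black rims for q at most 0.05) over the peaks of the list with up to 120 fragments and backgrounds under 60 (grey). The 8 peaks inside the mark sit at backgrounds of 9.16 to 14.8, and the 8 outside sit at 1.65 to 4.01.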

How the data were processed

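ChIP-seq peak lists of CREBBP and H3K27ac from SC1 cells were used, 1 sample each. The submitters' processing notes name hg19 and the tools fastp, Bowtie2, STAR and MACS2; the sources used here do not give their roles, versions and settings, the control library or any pooling. A score, a −log10 p, a −log10 q and a fold enrichment (ratio) were deposited by the authors for each interval. The CREBBP list, of narrow peaks with summits, holds peaks down to a −log10 p of 1.30, with no limit on q; the H3K27ac list holds broad regions. The authors' values were used only to describe and rank intervals in the same list.

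Only chromosomes 1 to 22 and X were kept, without 128 CREBBP peaks and 17 H3K27ac regions elsewhere. Gene intervals on hg19 were extended by 5 kb, strand came from RefSeq, and an overlap of 1 bp counted as inside. Coordinates are counted from 1. The members and lists were chosen with earlier results of these data known. All 7 genes are named, with all their intervals counted. Other genes are named only as neighbours in RefSeq (GRCh38.p14), and other MYC targets were not placed, since no hg19 annotation was at hand. Library depth is unknown from the lists. Fragments and backgrounds are inferences: a whole number of fragments, with p as the upper Poisson tail, gave the deposited p to within 0.001 (−log10) for 215573 peaks, 99.99% of the list, and for all 16 peaks described. Intervals are exact (Clopper-Pearson for shares, Poisson for fragments) at 95% and cover counting error only. The overlap and fragment code was tested on simulated data. RefSeq promoters matched all 7 genes. Alternatives were extensions of 0 and 10 kb, stronger subsets of either list, 50% overlap, the summit alone and a 500 bp flank at the start site. Python 3.11.15, numpy 2.4.6, pandas 2.3.3, scipy 1.17.1 and matplotlib 3.10.9 were used.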

Additional observations from a re-analysis of the deposited data

How the results depend on the processing

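Of 30 alternative values, 23 stayed close to the reported ones, within 1.5 times or, for the share of CREBBP peaks inside the mark, within its interval; that share ran from 25 to 66.7%. The other 7 moved. With H3K27ac regions kept to the upper 50% by q, 3 of the 7 start sites (FBL, CDK4 and NME1) lay in a region, 6 regions stood in the windows, 5.96% of their length was covered and 4 of the 6 regions held a CREBBP peak. With no extension of the gene body, 7 H3K27ac regions were left, the start site ones. With only CREBBP peaks of q at most 0.05, 3 peaks were left and 2 of the 11 regions held one. All these alternatives keep fewer intervals by their construction. An H3K27ac region covered the whole stretch of 500 bp on either side of the start site at 5 of 7 genes, FBL and CDK4 being the exceptions. No paired analysis was possible because CREBBP, H3K27ac and input had 1 sample apiece. Depth limits what a missing peak shows: the list gives no value where no peak was called, and the depth of the libraries is unknown.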

Other observations

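The 200 kb around the start sites differed in how much H3K27ac they held. CDK4 had 10 regions with 15.6 kb covered, NCL 4 with 9.08 kb, ODC1 3 with 5.72 kb, NME1 3 with 5.67 kb, LDHA 2 with 4.66 kb, FBL 2 with 2.47 kb and NPM1 1 with 2.28 kb, against 1.20 regions and 2.25 kb for an average 200 kb of the chromosomes used. CREBBP peaks did not follow this order. They numbered 25 at NME1, 21 at LDHA, 20 at NPM1, 17 at CDK4, 16 at ODC1, 12 at NCL and 12 at FBL, against an average of 14.2. Inside the mark lay 6 of the 17 at CDK4, 3 of the 12 at NCL, 2 each at ODC1, LDHA and NME1, and none of the 20 at NPM1 or the 12 at FBL, against 5.06% of the whole list. At most 1 of these peaks per gene reached a q of at most 0.05, those already described at CDK4, ODC1 and NCL.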
